A study of Mus musculus with 16 samples.

Results

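The macrophage and myeloid cell genes described here are Itgam, Itgax, Csf1r, Cx3cr1, Adgre1, Mrc1, Cd68, Lyz2, C1qa and C1qb, 10 of the 41740 genes counted in the ileal whole wall of STAM mice. They were chosen by name, and with the knowledge that Itgam was higher after insulin treatment, so the values of all 10 genes between the insulin-treated and untreated controls, and every value of Itgam, are given as a description with no test. STAM mice become diabetic and develop steatohepatitis after 200 µg of streptozotocin on day 2 of life and a diet rich in fat that starts at 4 weeks. All 16 mice were males of 20 weeks that carried floxed alleles of the insulin receptor gene, and total RNA of 1 mouse went into each library. Control-STAM-nonINS mice (n = 4) lacked Villin-Cre and received saline in place of insulin, Control-STAM-INS mice (n = 6) lacked Villin-Cre and received insulin degludec, a long-acting insulin, from 6 weeks of age at up to 12 U/kg, and ieIRKO-STAM-INS mice (n = 6) carried Villin-Cre and received the same insulin. The Villin promoter drives Cre in the epithelium of the intestine, whereas the genes described here are known from white blood cells of the tissue beneath it. The 3 groups are called untreated controls, treated controls and ieIRKO mice in what follows, the last by their label.

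The intestine holds one of the largest pools of macrophages of the body. They lie beneath the epithelium and in the muscle layer, clear dead cells and microbes, and are replaced to a great part by blood monocytes, which take on the tissue type under the growth factors of the Csf1 receptor. Itgam and Itgax encode the alpha chains CD11b and CD11c, which reach the cell surface only in a pair with the beta chain encoded by Itgb2, as the complement receptors 3 and 4. Itgam is shared by monocytes, neutrophils, eosinophils, natural killer cells and some dendritic cells, and Itgax by dendritic cells and gut macrophages. Csf1r and Cx3cr1 are the receptors for the growth factors Csf1 and Il34 and for the chemokine Cx3cl1, Adgre1 encodes the F4/80 antigen, Mrc1 the mannose receptor CD206, Cd68 a lysosomal glycoprotein, Lyz2 the lysozyme of macrophages, and C1qa and C1qb 2 of the 3 chains of complement C1q.

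Itgam and Itgax are neighbours on chromosome 7 of GRCm38, at chr7:128062640-128118491 and chr7:128129547-128150657 on the plus strand, and yet differed in their values, while Csf1r, C1qa and C1qb kept nearly constant proportions to each other. The 250 bases upstream of RefSeq's start of Itgam (chr7:128062390-128062639, plus strand), Itgax (chr7:128129300-128129549, plus strand) and C1qb (chr4:136886201-136886450, minus strand) are shown as RefSeq gives them for GRCm38.p6, 5′ to 3′. RefSeq's starts of Itgax and C1qb are not those of the gene annotation that gave the positions of the genes, so that the Itgax stretch reaches a few bases into the annotated gene and a short gap separates the C1qb stretch from its gene. Capitals mark GAGGAA or its reverse complement TTCCTC, the purine-rich box that the myeloid transcription factor PU.1, encoded by Spi1, is known to bind.

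Itgam: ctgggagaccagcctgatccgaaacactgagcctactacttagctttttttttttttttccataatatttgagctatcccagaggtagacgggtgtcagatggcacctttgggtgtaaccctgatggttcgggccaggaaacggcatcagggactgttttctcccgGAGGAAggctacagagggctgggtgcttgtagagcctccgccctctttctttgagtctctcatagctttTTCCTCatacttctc
Itgax: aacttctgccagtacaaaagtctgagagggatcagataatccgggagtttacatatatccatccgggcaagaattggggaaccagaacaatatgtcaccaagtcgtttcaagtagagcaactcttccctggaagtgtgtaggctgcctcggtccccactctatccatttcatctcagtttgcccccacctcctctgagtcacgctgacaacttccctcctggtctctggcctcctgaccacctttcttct
C1qb: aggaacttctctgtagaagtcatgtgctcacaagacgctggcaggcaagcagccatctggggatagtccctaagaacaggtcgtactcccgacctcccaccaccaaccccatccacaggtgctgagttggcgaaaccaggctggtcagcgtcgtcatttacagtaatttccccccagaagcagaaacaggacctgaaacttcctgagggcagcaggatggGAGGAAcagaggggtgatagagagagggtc

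The Itgam promoter held the box 2 times, from -84 to -79 and from -15 to -10 relative to RefSeq's start, and C1qb held it 1 time, from -30 to -25. No match lay in these letters of Itgax. Of the 7 members with a promoter in the table, 4 held the box, namely Itgam, Mrc1, Cd68 and C1qb, and Itgax, Cx3cr1 and Lyz2 did not. Mrc1 held it 3 times and Cd68 1 time. The same search found it in 23.3% of all 32851 promoters of this length. Whether PU.1 binds at these boxes, or whether they bear on the level of any gene here, was not tested.

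Between 13288018 and 22215382 reads were counted on genes per library, and values are given as CPM, counts relative to the library size (scaled by TMM). A total of 15267 genes passed the filter on low counts, all 10 members among them. Insr, the gene that the knockout targets, had between 57.5 and 90.5 CPM in the libraries labelled ieIRKO-STAM-INS and between 49.9 and 76.1 CPM in the treated controls, so the groups overlapped (log2 fold change 0.10, SE 0.13, adjusted p = 0.805 from edgeR). In the untreated controls it had between 88.3 and 115.8 CPM. The RNA is that of the whole wall, in which Insr of cells without Cre is counted too, and the exons that are deleted are not given in the sources used here, so these counts do not check the genotype labels. Some libraries stood apart in the values of the myeloid genes. Untreated replicate 4 had the highest level of its group for 8 of the 10 members, with ratios to the mean of the other 3 libraries of 1.26 for Mrc1 to 2.22 for Csf1r, but not for Itgam (1.02) and Lyz2 (1.03). Untreated replicate 1 had the lowest level of its group for 6 of the 10 members, with ratios of 0.392 for Cx3cr1 and 0.507 for Itgax. Replicates 2 and 3 of the ieIRKO mice had 270 and 170.3 CPM of the B cell genes Cd79a, Cd79b and Ms4a1 together, against 15.5 to 47.2 CPM in the other 14 libraries.

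Itgam was higher in the insulin-treated mice than in the untreated mice. In the untreated controls it had 15.9, 19.1, 11.3 and 15.7 CPM. In the treated controls it had 29.0 CPM at the lowest, a median of 36.2 and 51.5 at the highest, and in the ieIRKO mice 40.1, 55.4 and 75.0. All 12 insulin-treated libraries thus lay above the 4 untreated ones, and the libraries of treated controls and ieIRKO mice overlapped. The share of all genes whose treated and untreated libraries were set apart in this way is not given here. The log2 fold change was 1.29 (SE 0.20) for the treated controls against the untreated controls, 0.59 (SE 0.17) for the ieIRKO mice against the treated controls and 1.89 (SE 0.21) for the ieIRKO mice against the untreated controls. Of all genes tested, 3.73% were called higher and 6.76% lower in the first of these comparisons, 0.223% were called in either direction in the second, and 5.74% were called higher and 7.59% lower in the last, where called means an adjusted p under 0.05 in edgeR's quasi-likelihood test. Both comparisons with the untreated controls use the same 4 untreated libraries, and the last differs in both the Cre label and insulin. Without untreated replicate 4 the first value was 1.30 (SE 0.24), and without ieIRKO replicates 2 and 3 the second was 0.56 (SE 0.18).

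**Figure D1:**
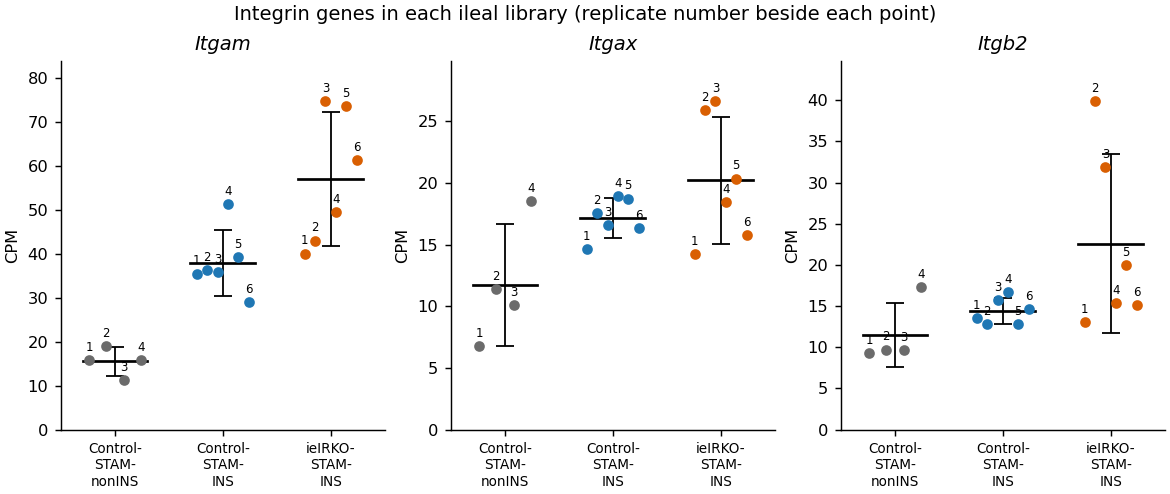
CPM of Itgam, Itgax and Itgb2 in each of the 16 libraries by group, where points are libraries with their replicate number, lines are group means and bars are SD. Itgam of all 12 insulin-treated libraries lay above the 4 untreated libraries, of which the highest had 19.1 CPM, whereas Itgax and Itgb2 of the groups overlapped.

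The gene model Gm49368 shares exons with Itgam on the same strand, and a read in a shared exon could be counted to either. It was looked at after its values were seen and had at most 1.17 CPM in any library. With its counts added to Itgam, the log2 fold changes were 1.31, 0.58 and 1.89 in the order above. No 50-base stretch of the Itgam transcripts was shared with Itgax or Itgad. In the bulk RNA of a whole wall, a change in the number of cells of a type and a change in the RNA of a gene per cell cannot be told apart.

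Itgax, the neighbour of Itgam, was also higher with insulin but by less, and the groups overlapped. In the untreated controls it had 6.77, 11.4, 10.1 and 18.5 CPM. It had 14.6 to 19.0 CPM in the treated controls and 14.2 to 26.7 CPM in the ieIRKO mice. Untreated replicate 4 lay within the range of the treated mice, and the other 3 untreated libraries lay below all 12 treated libraries. The log2 fold change was 0.54 (SE 0.22) for the treated controls against the untreated controls and 0.86 (SE 0.20) without untreated replicate 4. It was 0.35 (SE 0.21) without untreated replicate 1. Between the ieIRKO mice and the treated controls it was 0.24 (SE 0.20, 95% confidence interval -0.14 to 0.62, adjusted p = 0.675 from edgeR).

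In the ieIRKO mice against the untreated controls, Itgax was the only 1 of the 9 members other than Itgam that rose, against the background of 5.74% of all genes (log2 fold change 0.78, SE 0.23, adjusted p = 0.0299 from edgeR). This call was lost without untreated replicate 1, 2 or 3 (adjusted p = 0.0952, 0.0574 and 0.0854 from edgeR) and without ieIRKO replicate 2 or 3 (adjusted p = 0.0527 and 0.0622), and without both of the last 2 libraries the log2 fold change was 0.55 (adjusted p = 0.118). Of the 50-base stretches of the Itgax transcripts, 8.02% also occur in Itgad, another alpha chain of the same gene cluster with 110 counts over all 16 libraries.

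The beta chain Itgb2, the partner of both, had 9.24, 9.72, 9.68 and 17.4 CPM in the untreated controls, 12.8 to 16.7 CPM in the treated controls and 13.01 to 40.0 CPM in the ieIRKO mice. Its 2 highest libraries were ieIRKO replicates 2 and 3, those with the most B cell RNA, and Itgb2 is also used by lymphocytes. With insulin, the log2 fold change was 0.31 (SE 0.29, adjusted p = 0.546 from edgeR). Between the ieIRKO mice and the untreated controls Itgb2 rose by 0.96 (SE 0.29, adjusted p = 0.0403 from edgeR), and without ieIRKO replicates 2 and 3 this value was 0.46 (adjusted p = 0.13). It passed in 8 of the 16 leave-one-out fits, with an adjusted p of up to 0.124 (without untreated replicate 1). Itgal, the alpha chain of lymphocytes and other white blood cells, rose in the same comparison (log2 fold change 1.35, SE 0.41, adjusted p = 0.0396 from edgeR), passed in 10 of these 16 fits (adjusted p = 0.121 without untreated replicate 1), and had 0.65 (adjusted p = 0.0983) without the same 2 libraries.

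The ratio of Itgam to its partner was higher in the treated controls than in the untreated controls. Per kilobase of exon, Itgam had 0.875 ± 0.296 times the level of Itgb2 in the untreated controls (SD, n = 4), 1.61 ± 0.268 times in the treated controls (SD, n = 6) and 1.77 ± 0.647 times in the ieIRKO mice (SD, n = 6). The lowest treated control library had 1.21 and the highest untreated library 1.20, so these groups did not overlap, though by a small margin, and ieIRKO replicate 2 fell among the untreated mice with 0.655. Against Csf1r the ratio was 0.395 ± 0.161 in the untreated controls (SD, n = 4), 0.944 ± 0.227 in the treated controls (SD, n = 6) and 1.28 ± 0.330 in the ieIRKO mice (SD, n = 6). The highest untreated library had 0.567 and the lowest insulin-treated library 0.6252. These ratios contain Itgam, which was chosen for its values, and are a description.

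**Figure D2:**
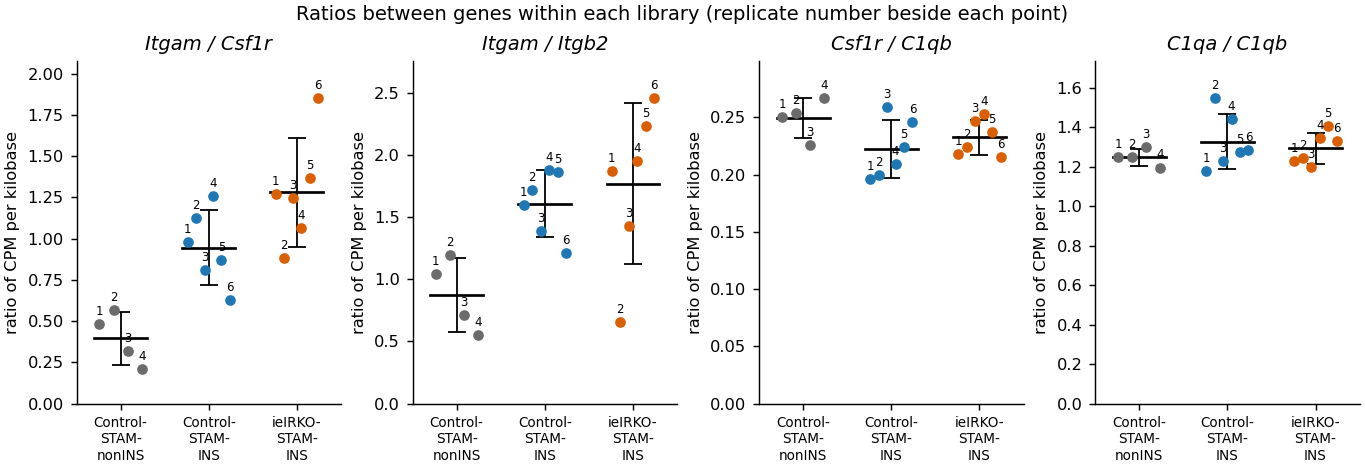
Ratios of CPM per kilobase of exon between pairs of genes within each library, by group, where points are libraries with their replicate number, lines are group means and bars are SD. Itgam per Csf1r lay at 0.567 or lower in the untreated libraries and at 0.6252 or higher in the treated ones, while Csf1r per C1qb stayed between 0.196 and 0.267 and C1qa per C1qb between 1.18 and 1.55 in all 16 libraries.

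Neither of the receptor genes Csf1r and Cx3cr1 passed with all libraries in the 2 comparisons tested. Csf1r had 37.8, 38.8, 40.5 and 86.8 CPM in the untreated controls, 37.2 to 53.3 CPM in the treated controls and 36.3 to 69.1 CPM in the ieIRKO mice. Untreated replicate 4 was thus the highest of all 16 libraries, and the other 3 untreated libraries lay near the lowest treated ones. The log2 fold change with insulin was -0.12 (SE 0.23) with and 0.27 (SE 0.18) without this library, and -0.24 (SE 0.25) without untreated replicate 1. In the ieIRKO mice against the treated controls it was 0.16 (SE 0.21, 95% confidence interval -0.25 to 0.57, adjusted p = 0.82 from edgeR), and between the ieIRKO mice and the untreated controls 0.04 (SE 0.23, adjusted p = 0.933). Csf1r lies at chr18:61100598-61132149 and its exons overlap those of Hmgxb3 on the opposite strand. Whether the counting used strand is not stated in the sources used here.

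Cx3cr1 had 5.02, 9.49, 11.1 and 17.8 CPM in the untreated controls, 10.8 to 15.2 CPM in the treated controls and 11.2 to 16.7 CPM in the ieIRKO mice. The untreated libraries spanned both the lowest and the highest of the 16 values. The log2 fold change with insulin was 0.22 (SE 0.23), or 0.58 (SE 0.20) without untreated replicate 4 and -0.01 (SE 0.18) without untreated replicate 1. It was 0.17 (SE 0.21, adjusted p = 0.79 from edgeR) between the ieIRKO mice and the treated controls. Against the untreated controls, Cx3cr1 of the ieIRKO mice had 0.40 (SE 0.23, adjusted p = 0.264 from edgeR). In this comparison it rose by 0.75 (SE 0.20, adjusted p = 0.0219 from edgeR) without untreated replicate 4, and had 0.16 (adjusted p = 0.637) without untreated replicate 1. Its exons overlap those of Gm33858 on the opposite strand. Csf1 and Il34, the ligands of Csf1r, showed no call with insulin or between the ieIRKO mice and the treated controls. The values of Cx3cl1 are not given here. Csf1 had a log2 fold change of 0.09 (SE 0.16, adjusted p = 0.779 from edgeR) with insulin and 0.11 (SE 0.14, adjusted p = 0.799) in the ieIRKO mice against the treated controls, and Il34 had -0.05 (SE 0.15, adjusted p = 0.892) and 0.09 (SE 0.14, adjusted p = 0.845). Both ligands are outside the rule for named genes and were chosen after their values were seen.

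Of the surface and lysosomal markers, Adgre1 was the one whose treated controls lay in the narrowest range. It had 3.62, 3.14, 5.48 and 8.57 CPM in the untreated controls, 7.001 to 7.72 CPM in the treated controls and 4.83 to 8.76 CPM in the ieIRKO mice. The 6 treated controls lay above 3 untreated libraries and below untreated replicate 4. Its log2 fold change with insulin was 0.48 (SE 0.23), or 0.84 (SE 0.21) without untreated replicate 4 and 0.34 (SE 0.24) without untreated replicate 1. Between the ieIRKO mice and the treated controls it was -0.04 (SE 0.21, 95% confidence interval -0.44 to 0.37, adjusted p = 0.962 from edgeR).

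Mrc1 differed little between libraries. It had 15, 13.6, 12.4 and 17.2 CPM in the untreated controls, 11.5 to 15.6 CPM in the treated controls and 11.2 to 14.1 CPM in the ieIRKO mice. All 3 groups overlapped, and its log2 fold changes were -0.17 (SE 0.12) with insulin, -0.02 (SE 0.11, 95% confidence interval -0.22 to 0.19, adjusted p = 0.967 from edgeR) in the ieIRKO mice against the treated controls and -0.19 (SE 0.12, adjusted p = 0.301) against the untreated controls. Without untreated replicate 4 the values with insulin and against the untreated controls were -0.08 (SE 0.12) and -0.09 (SE 0.12, adjusted p = 0.641 from edgeR). Cd68 had 4.42, 3.21, 6.15 and 8.13 CPM in the untreated controls, 4.00 to 6.72 CPM in the treated controls and 4.70 to 8.19 CPM in the ieIRKO mice. Its log2 fold changes were 0.06 (SE 0.23), 0.16 (SE 0.20, adjusted p = 0.807 from edgeR) and 0.22 (SE 0.23, adjusted p = 0.558) in the same order. For Cd68 the first and last of these were 0.32 (SE 0.23) and 0.48 (SE 0.23, adjusted p = 0.176 from edgeR) without untreated replicate 4, and the second and last were -0.01 (adjusted p = 0.997) and 0.07 (adjusted p = 0.903) without ieIRKO replicates 2 and 3.

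The C1q chains moved together and with Csf1r from library to library, and no difference of them passed with all libraries in the 2 comparisons tested. C1qa had 33.8, 34.4, 42.0 and 69.9 CPM in the untreated controls, 43.5 to 58.4 CPM in the treated controls and 36.8 to 66.1 CPM in the ieIRKO mice. C1qb had 28.4, 28.9, 33.8 and 61.2 CPM in the untreated controls, 35.2 to 43.8 CPM in the treated controls and 31.3 to 52.8 CPM in the ieIRKO mice. In both, untreated replicate 4 was the highest of all 16 libraries, and the other 3 untreated libraries lay below every treated control. The log2 fold changes with insulin were 0.16 (SE 0.19) for C1qa and 0.06 (SE 0.20) for C1qb, or 0.46 (SE 0.16) and 0.39 (SE 0.15) without that library. They were 0.04 (SE 0.20) and -0.05 (SE 0.20) without untreated replicate 1. In the ieIRKO mice against the treated controls they were 0.05 (SE 0.17, adjusted p = 0.939 from edgeR) and 0.08 (SE 0.17, adjusted p = 0.887).

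The 3 C1q genes lie beside each other on the minus strand of chromosome 4, C1qb at chr4:136880129-136886187, C1qc at chr4:136889804-136893065 and C1qa at chr4:136895917-136898803. C1qa and C1qb, and C1qb and C1qc, share no 50-base stretch of their transcripts. C1qc, the remaining chain, had 23.4 to 56.1 CPM in the untreated controls, 30.4 to 42.0 CPM in the treated controls and 27.1 to 50.7 CPM in the ieIRKO mice, with log2 fold changes of 0.01 (SE 0.22, adjusted p = 0.979 from edgeR) with insulin and 0.07 (SE 0.20, adjusted p = 0.916) in the ieIRKO mice against the treated controls. Per kilobase, C1qa had 1.29 ± 0.1003 times the level of C1qb over all 16 libraries (SD), C1qc 0.497 ± 0.0534 times and Csf1r 0.233 ± 0.0218 times, whereas the level of C1qb itself ranged from 26.1 to 56.3 CPM per kilobase.

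**Figure D3:**
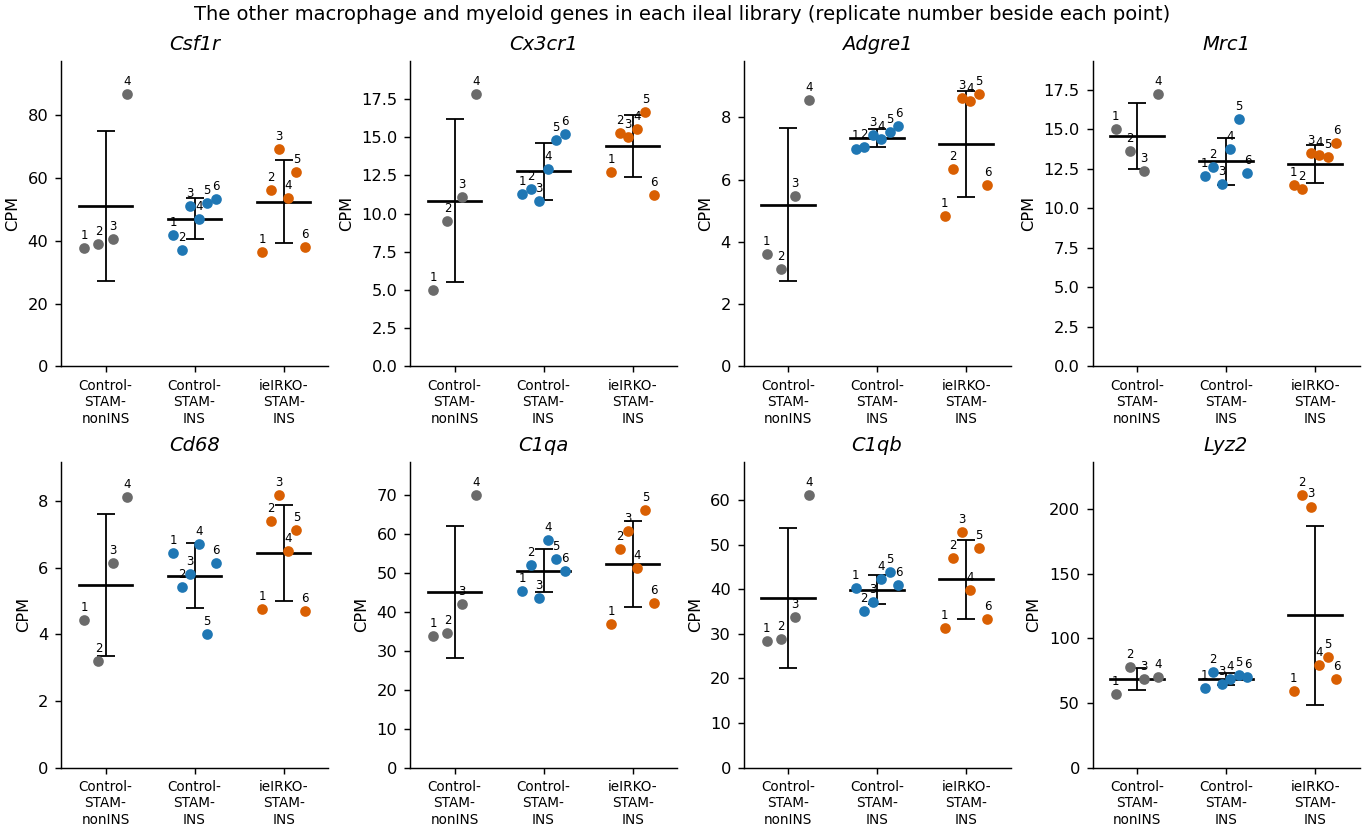
CPM of the other 8 members in each of the 16 libraries by group, where points are libraries with their replicate number, lines are group means and bars are SD. Untreated replicate 4 was the highest of its group in all panels but Lyz2, and Lyz2 of ieIRKO replicates 2 and 3 lay at 211 and 202 CPM.

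Lyz2 stood out through 2 libraries. It had 57.1, 77.5, 68.5 and 69.8 CPM in the untreated controls, 61.7 to 74.0 CPM in the treated controls, and 59.5, 211, 202, 79.4, 85.7 and 68.6 CPM in replicates 1 to 6 of the ieIRKO mice. The 2 high libraries were those with the most B cell RNA, in which Ms4a1, the CD20 antigen of B cells, had 80.3 and 37.5 CPM against at most 4.88 CPM elsewhere. Ptprc, the CD45 antigen of all white blood cells, had 177.6 and 102.4 CPM in them against 19.8 to 41.5 CPM elsewhere. Lyz2 had a log2 fold change of 0.00 (SE 0.32) with insulin and 0.78 (SE 0.28, 95% confidence interval 0.23 to 1.34, adjusted p = 0.344 from edgeR) in the ieIRKO mice against the treated controls. Without the 2 libraries the second value was 0.09 (SE 0.10, adjusted p = 0.91). Against the untreated controls, Lyz2 of the ieIRKO mice had 0.79 (SE 0.32, adjusted p = 0.118 from edgeR), which DESeq2 called higher (adjusted p = 0.0418), and without the 2 libraries it had 0.11 (adjusted p = 0.61 from edgeR). The part of these cells in the level of Lyz2 was not tested.

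The B cell list as a whole had 7 of 7 genes tested, and in the ieIRKO mice against the treated controls its median log2 fold change was 2.02 beside 0.02 for all genes tested, with 0 called by edgeR, 7 at an unadjusted p under 0.05 (against 11.3% of all genes) and 5 called higher by DESeq2 (against 0.42%). Without ieIRKO replicates 2 and 3 the median was 0.63, with 0 called by edgeR and 4 at an unadjusted p under 0.05 (against 6.62% of all genes). Its summed level lay between 1721 and 3118 CPM in the ieIRKO mice, between 961.3 and 1542 CPM in the treated controls and between 718.7 and 1774 CPM in the untreated controls, and no gene of the list was at 0 throughout. Most of this sum is Jchain, a gene of antibody-secreting cells.

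**Figure D4:**
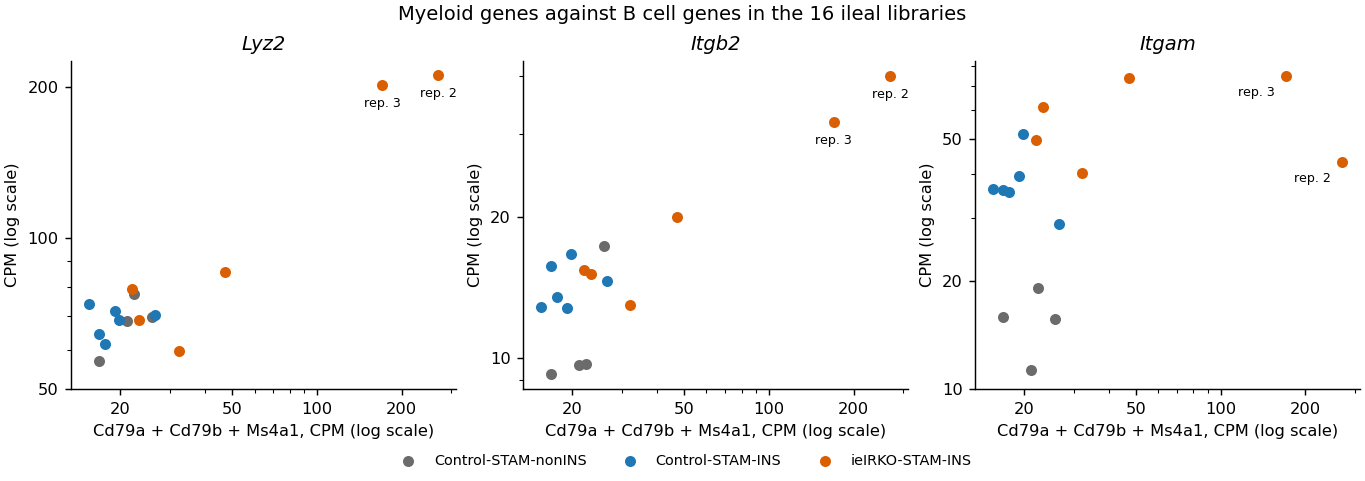
CPM of Lyz2, Itgb2 and Itgam (vertical axes, log scale) against the summed CPM of the B cell genes Cd79a, Cd79b and Ms4a1 (horizontal axes, log scale) in the 16 libraries, coloured by group. ieIRKO replicates 2 and 3 had the highest Lyz2 and Itgb2 of all libraries, while their Itgam lay at 43.1 and 75.0 CPM, among the 40.1 to 73.7 CPM of the other libraries of their group in replicate 2 and above them in replicate 3.

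Lyz2 has a near-identical paralog, Lyz1, the lysozyme of Paneth cells, beside it on chromosome 10, and 15.4% of the 50-base stretches of the Lyz2 transcripts also occur in Lyz1. Lyz1 had 1937 to 3052 CPM in the untreated controls, 2014 to 3367 CPM in the treated controls and 362.1 to 721.2 CPM in the ieIRKO mice. It fell by 2.31 on the log2 scale in the ieIRKO mice against the treated controls (SE 0.18, adjusted p = 1.25e-06 from edgeR), with no overlap between the groups. Per kilobase, Lyz2 had 0.0200 to 0.0346 times the level of Lyz1 in the controls and 0.0792 to 0.535 times in the ieIRKO mice. How the counting treated reads that match both genes is not stated in the sources used here, so the level of Lyz2 is uncertain. The counts of both genes together had a log2 fold change of -2.06 (SE 0.16, adjusted p = 7.66e-07 from edgeR).

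Side by side, the 9 members other than Itgam had a median log2 fold change of 0.06 with insulin, 0.16 in the ieIRKO mice against the treated controls and 0.22 in the ieIRKO mice against the untreated controls, beside -0.004, 0.017 and 0.009 for all genes tested. In the second comparison 0 of the 9 passed in edgeR, where 0.223% of all genes did, and 0 in DESeq2, which called 0.42% of all genes higher and 0.342% lower. Of the 9, 1 (Lyz2, 11.1%) had an unadjusted p under 0.05, against 11.3% of all genes. The first and last comparisons depended on single untreated libraries. Without untreated replicate 4, the medians were 0.39 and 0.50, and 5 of the 9 members rose in the last comparison, namely Itgax (adjusted p = 0.00282 from edgeR), Adgre1 (0.0201), Cx3cr1 (0.0219), C1qb (0.0422) and C1qa (0.0427), where 5.52% of all genes were called higher. Without it, the log2 fold change of Itgam in the last comparison was 1.89 (SE 0.24), and those of these 5 members lay between 0.48 and 1.102. With untreated replicate 1 left out instead, the medians were -0.03 and 0.13. In that fit 0 of the 9 passed in the last comparison, where 2.64% of all genes were called higher. Without ieIRKO replicates 2 and 3 none of the 9 passed in the last comparison, and its median was 0.11.

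**Figure D5:**
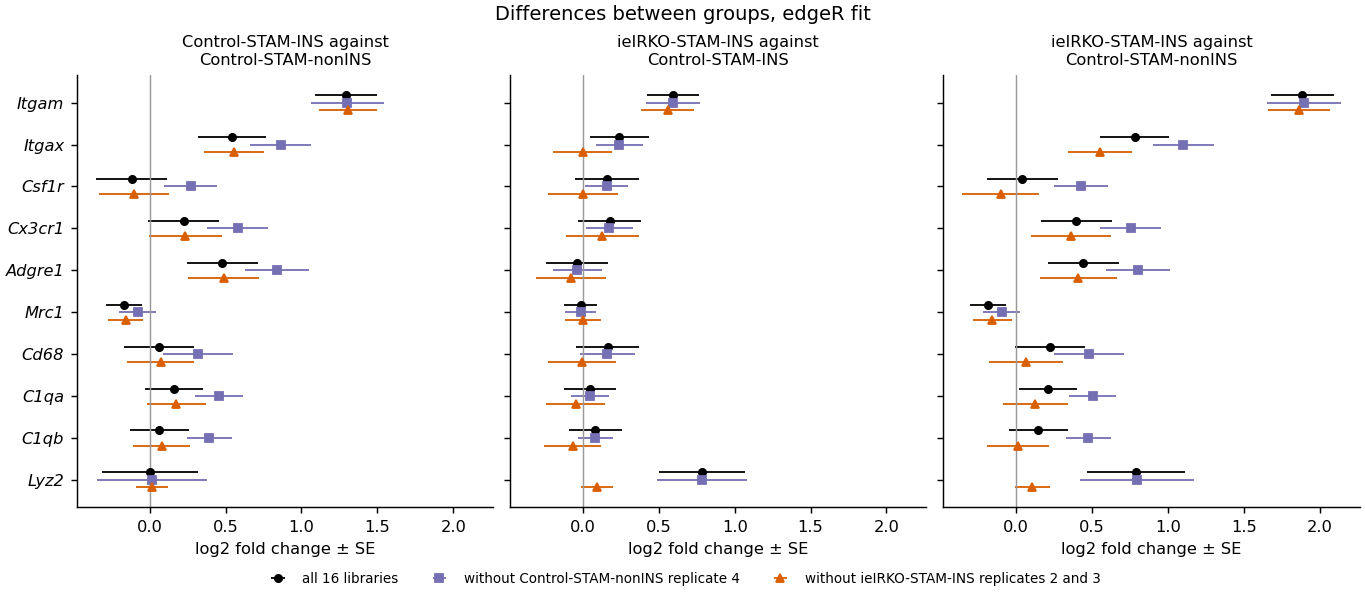
Log2 fold change with its standard error of each member in the 3 comparisons, fitted by edgeR to all 16 libraries, without untreated replicate 4, and without ieIRKO replicates 2 and 3. Itgam stayed between 1.29 and 1.31 in the first comparison under the 3 fits, Lyz2 went from 0.78 to 0.09 in the second without ieIRKO replicates 2 and 3, and Itgax from 0.54 to 0.86 in the first without the untreated library.

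In level per kilobase of exon, averaged over all libraries, Lyz2 was the highest member with 66.0 CPM per kilobase, followed by C1qa with 47.8 and C1qb with 37.1. The mean of Lyz2 contains the high values of ieIRKO replicates 2 and 3, and over single libraries Lyz2 (43.4 to 160.3), C1qa (32.5 to 67.2) and C1qb (26.1 to 56.3) overlapped. Csf1r (8.67), Itgam (7.87), Cd68 (4.73), Itgax (3.53) and Cx3cr1 (2.87) came next, and Mrc1 and Adgre1 had 2.09 and 2.08. Over single libraries Csf1r ranged from 6.29 to 15.03 and Itgam from 2.25 to 14.9, so these neighbours overlapped, as did Mrc1 (1.76 to 2.70) and Adgre1 (0.969 to 2.71). Itgam changed its place: in the untreated controls it had 3.09 ± 0.640 CPM per kilobase (SD, n = 4), in the treated controls 7.56 ± 1.48 (SD, n = 6) and in the ieIRKO mice 11.4 ± 3.03 (SD, n = 6).

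The genes whose log2 CPM followed Itgam most closely over the 16 libraries, among the 14077 genes outside the members with a mean of at least 1 CPM, were A730017L22Rik (Pearson r = 0.942), Tbccd1 (0.927), Jpt2 (0.925), Adam8 (0.897) and Skap2 (0.896). The libraries share their groups, so this likeness contains the difference between treated and untreated mice. Skap2 had 23.4 ± 2.60 CPM in the untreated controls (SD, n = 4), 39.7 ± 3.49 in the treated controls (SD, n = 6) and 47.3 ± 7.09 in the ieIRKO mice (SD, n = 6). Itgb2 came at rank 1061 (r = 0.613), and the other members ranged from r = -0.21 for Mrc1 to 0.72 for Itgax. The mean of the other 9 members was followed most closely by Mpeg1 (r = 0.967), Cd300c2 (0.906), Gbp4 (0.898), Tlr12 (0.896) and Ift80 (0.892), with C1qc next (0.890). Mpeg1 had a mean of 53.4 ± 32.9 CPM in the untreated controls, where untreated libraries spanned 32.2 to 102.1 CPM, against 63.8 ± 7.34 in the treated controls.

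Other genes of the myeloid cells, in 10 lists covering macrophages, monocytes, granulocytes, dendritic cells, complement, growth factors and inflammatory products, were tested in the same fit. With insulin, 4 of the 84 genes tested rose and 5 fell, which is 4.76% and 5.95% against 3.73% and 6.76% of all genes. Single libraries moved these counts. They were 3 and 1 without untreated replicate 1 (3.57% and 1.19% against 1.58% and 3.76% of all genes). They were 4 and 6 without untreated replicate 2 (against 4.69% and 7.43% of all genes) and 3 and 3 without untreated replicate 3 (against 2.14% and 4.79%). Without ieIRKO replicate 2, which is in the fit but not in the comparison, they were 4 and 7 (against 3.85% and 6.7%). Without untreated replicate 4 they were 6 and 3 (7.14% and 3.57% against 2.73% and 4.74%), and Clec7a, the beta-glucan receptor of macrophages, also rose (log2 fold change 1.117, adjusted p = 0.0321 from edgeR). Without any 1 of the treated controls 4 rose and 3 or 4 fell, against 2.54% to 2.92% and 5.09% to 5.47% of all genes. Of the 9 calls with all libraries, 4 were in the list of blood monocytes, in which 8 genes were tested. There 12.5% rose and 37.5% fell, against 3.73% and 6.76% of all genes, and 0% and 12.5% without untreated replicate 1, against 1.58% and 3.76%. Ccr2, the receptor that brings monocytes out of the bone marrow, rose (log2 fold change 1.16, SE 0.29, adjusted p = 0.0159 from edgeR), while Nr4a1 (-3.65, adjusted p = 0.00258), Ly6c2 (-0.89, adjusted p = 0.0149) and F13a1 (-0.82, adjusted p = 0.0319) fell. Ccr2 had 1.51 to 2.27 CPM in the untreated and 2.44 to 5.51 CPM in the treated controls, and Ly6c2, a surface antigen of monocytes that have newly left the marrow, had 6.94 to 9.64 and 3.03 to 5.81 CPM. Genes of this list thus moved in opposite directions, and which cells of the wall carried their RNA was not tested. Ly6c2 has a near-identical neighbour, Ly6c1, and its value is uncertain for this reason. Nr4a1 is also an immediate early gene of many cell types, and untreated libraries spanned 14.3 to 105.2 CPM. Ccr2 lost its call without untreated replicate 1 or 3 (adjusted p = 0.0538 and 0.0501), Ly6c2 without untreated replicate 1 (0.0557), and F13a1 passed in 9 of the 16 fits that left out 1 library.

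Of the other macrophage genes, Lgmn, a lysosomal protease, fell with insulin (adjusted p = 0.0223 from edgeR, log2 fold change -0.53, SE 0.14) and was the 1 call among 19 tested (5.26%, against 6.76% of all genes called lower). It was lost without untreated replicate 1 or 2 (adjusted p = 0.0839 and 0.0553). Cd163, the haemoglobin scavenger receptor of long-lived tissue macrophages, fell from 6.74 to 9.23 CPM in the untreated to 4.25 to 6.24 CPM in the treated controls (log2 fold change -0.70, SE 0.22, adjusted p = 0.0481 from edgeR), a call at the threshold that held in 4 of 16 fits without 1 library. It was the 1 call among the 10 genes tested of its list (10%, against 6.76% of all genes called lower). In the ieIRKO libraries Cd163 had 1.56 to 4.41 CPM, lower than in the untreated controls by a log2 fold change of -1.37 (SE 0.22, adjusted p = 0.000967 from edgeR), and this call held in all 16 such fits. It overlapped with the treated controls, where the log2 fold change was -0.67 (adjusted p = 0.29).

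Among the dendritic cell genes, Xcr1, the chemokine receptor of cross-presenting dendritic cells, rose with insulin from 0.437 to 0.863 CPM in the untreated to 1.43 to 2.25 CPM in the treated controls (log2 fold change 1.62, SE 0.35, adjusted p = 0.00632 from edgeR). Itgae, the CD103 integrin chain of dendritic cells and intraepithelial T cells, rose by 0.99 (SE 0.22, adjusted p = 0.00821 from edgeR). These were 2 of the 12 dendritic cell genes tested (16.7%, against 3.73% of all genes called higher). Of the growth factors, Kitl rose by 0.68 (SE 0.11, adjusted p = 0.00119 from edgeR), the 1 call among the 9 genes tested of that list (11.1%, against 3.73%). Xcr1, Itgae and Kitl passed in all 16 fits that left out 1 library. The list of beta2 integrins with their ligands, led in level by Tln1 and C3, had 0 calls with insulin among 7 genes tested in edgeR, 0 at an unadjusted p under 0.05 and 0 in DESeq2. Of the 11 complement genes, led by Cfb and C3, 0 were called by edgeR and by DESeq2, with 1 at an unadjusted p under 0.05. Of all genes, 3.73% were called higher and 6.76% lower by edgeR in this comparison, 4.96% and 7.04% by DESeq2, and 25.4% had an unadjusted p under 0.05.

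Between the ieIRKO mice and the treated controls, 0 of the 84 myeloid list genes passed in edgeR, 19 (22.6%, against 11.3% of all genes) had an unadjusted p under 0.05, and without ieIRKO replicates 2 and 3 it was 8 (9.52%, against 6.62%). Without ieIRKO replicate 1 there was 1 call lower (against 0.256% of all genes), and without ieIRKO replicate 4 there was 1 call higher (against 0.0656% of all genes). DESeq2 called 1 higher (1.09%, against 0.42% of all genes), Irf4, a factor of both dendritic and B cells, which was chosen after its values were seen and had a log2 fold change of 0.99 (SE 0.26, adjusted p = 0.21 from edgeR). In the ieIRKO mice against the untreated controls, 12 rose and 6 fell, 14.3% and 7.14% against 5.74% and 7.59% of all genes. Among the rises were those of Ccl22 (log2 fold change 1.89, adjusted p = 0.018 from edgeR), Itgal, Ccr2 (1.33, adjusted p = 0.006), Clec7a (1.15, adjusted p = 0.0172), Cxcl9 (1.11, adjusted p = 0.0346) and Kitl (0.61, adjusted p = 0.00229), and the falls included Nr4a1 (-2.55, adjusted p = 0.0116), F13a1 (-1.42, adjusted p = 0.00119), Cd163, Ly6c2 (-1.20, adjusted p = 0.00209) and Lyve1 (-0.71, adjusted p = 0.0202). Clec7a lost its call without untreated replicate 1 (adjusted p = 0.0691 from edgeR), Nr4a1 without the same library (0.0576), Ccl22 without untreated replicate 1 or 4 (0.069 and 0.0534) and Lyve1 without untreated replicate 4 (0.0865), and Cxcl9 passed in 9 of the 16 fits that left out 1 library. Without ieIRKO replicates 2 and 3 the counts were 4 and 6, which is 4.76% and 7.14% against 3.45% and 4.87% of all genes, so the share of rises above that of all genes was larger with these 2 libraries in the fit. Without untreated replicate 1 the counts were 4 and 4, which is 4.76% each against 2.64% and 4.45% of all genes, and without ieIRKO replicate 3 alone they were 6 and 5, against 3.92% and 5.77% of all genes.

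Itgam is also carried by neutrophils, eosinophils and natural killer cells, whose own markers were tested as separate lists. Of the 14 neutrophil genes 4 passed the filter, none of which was called in any of the 3 comparisons by edgeR (1, 0 and 1 at an unadjusted p under 0.05, where 25.4%, 11.3% and 29.4% of all genes were) or by DESeq2 with all libraries. Without ieIRKO replicates 2 and 3, which are in the fit but not in the comparison, Lcn2, an antimicrobial protein also made by epithelium, was called lower with insulin (adjusted p = 0.0482 from edgeR, log2 fold change -0.71), against 0.0851 with all libraries. The defining genes S100a8, S100a9, Cxcr2 and Ly6g had 32, 25, 18 and 17 counts over all 16 libraries together, with Mpo at 0 in every library; these and Lcn2 were chosen after their values were seen. The summed level of the list lay between 7.998 and 17.1 CPM in the untreated controls, 5.67 and 9.82 CPM in the treated controls and 6.33 and 13.2 CPM in the ieIRKO mice. The 6 eosinophil genes summed to 3.42 to 4.77, 4.07 to 8.42 and 3.34 to 7.51 CPM in the same order, and 0 of the 2 tested passed in any of the 3 comparisons in edgeR, nor had either an unadjusted p under 0.05, and DESeq2 called 0. The genes of natural killer and innate lymphoid cells were higher in level, with a sum of 19.99 to 38.7, 27.0 to 41.2 and 26.5 to 61.6 CPM. With insulin, 0 of the 7 tested rose and Rora fell (adjusted p = 0.006 from edgeR, log2 fold change -0.71), 14.3% against 6.76% of all genes called lower, and without untreated replicate 4 the counts were 2 and 1, 28.6% and 14.3% against 2.73% and 4.74%. DESeq2 called 2 of 8 higher with insulin (25%, against 4.96% of all genes), Prf1 (adjusted p = 0.0253 from DESeq2) and Gzma (0.0458), and 1 lower (12.5%, against 7.04%). In the second comparison 0 passed in edgeR and in DESeq2, with 1 at an unadjusted p under 0.05. From the untreated controls to the ieIRKO mice 2 rose, 28.6% against 5.74% of all genes, and Rora fell (log2 fold change -0.59, adjusted p = 0.0147 from edgeR). The risen genes were those of the cytotoxic granule, which T cells share. Prf1, at 0 to 0.481 CPM in the untreated controls and 0.781 to 2.09 CPM in the ieIRKO mice, had a log2 fold change of 2.38 (SE 0.49, adjusted p = 0.00457 from edgeR) and passed in all 16 fits that left out 1 library. Gzma had 1.19 (SE 0.38, adjusted p = 0.0493 from edgeR) and passed in 4 of these fits. Without untreated replicate 1 the counts were 1 and 0 (14.3% and 0% against 2.64% and 4.45% of all genes), and without ieIRKO replicates 2 and 3 they were 1 and 1 (14.3% each against 3.45% and 4.87%). The part of these cells in the level of Itgam was not tested.

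Some T cell genes were also higher in the insulin-treated mice. With insulin 3 of 7 tested rose, Cd3g (log2 fold change 1.74, adjusted p = 0.00398 from edgeR), Cd3e (1.47, adjusted p = 0.0336) and Cd8a (1.33, adjusted p = 0.00341), 42.9% against 3.73% of all genes. Cd3e passed in 9 of the 16 fits that left out 1 library, and Cd3g and Cd8a in all 16. The summed level of the 8 T cell genes was 14 to 24.5 CPM in the untreated controls, 23.7 to 39.8 CPM in the treated controls and 23.96 to 64.0 CPM in the ieIRKO mice, with Trac at 0 in all libraries. Ptprc had a log2 fold change of 0.16 with insulin (adjusted p = 0.878 from edgeR). In the ieIRKO mice against the untreated controls, where 5.74% of all genes were called higher, 5 of the 7 T cell genes rose (71.4%), as did 3 of 7 B cell genes (42.9%) and 2 of 6 genes common to white blood cells (33.3%). Without ieIRKO replicates 2 and 3 these counts were 4 of 6, 2 of 7 and 0 of 6, where 3.45% of all genes were called higher. Without untreated replicate 1 they were 5, 1 and 0, against 2.64%. The part of these cells in the calls of the myeloid lists in this comparison was not tested. The part of T cells or other white blood cells in the level of Itgam was not tested. Of the wall's other cells, 0 of 8 enterocyte and 0 of 5 smooth muscle genes were called with insulin by edgeR, with 0 and 1 at an unadjusted p under 0.05, and 0 of either by DESeq2. Of the 7 Paneth cell genes, 2 rose with insulin (28.6%, against 3.73% of all genes), Itln1 (adjusted p = 0.00615 from edgeR, log2 fold change 1.39) and Defa24 (0.0123, log2 fold change 0.81). Between the ieIRKO mice and the treated controls 5 of the 7 fell (71.4%, against 0.183% of all genes), and without ieIRKO replicates 2 and 3 it was 3 of 7 (42.9%, against 0.118%). The summed level of the Paneth list was 4130 to 6921 CPM in the untreated controls, 5731 to 10350 CPM in the treated controls and 2133 to 3515 CPM in the ieIRKO mice.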

How the data were processed

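Libraries of total ileal RNA, made with a directional kit, were read on an Illumina NovaSeq, and the authors aligned the reads to GRCm38 (mm10) with CLC Genomics Workbench and deposited raw counts per gene, 1 table per mouse. Strand use, annotation and the treatment of reads matching several genes in the counting are not given in the sources used here. The column of counts was used as deposited. Counts of 16 libraries (13288018 to 22215382 reads) were fitted together in edgeR 4.0.16 (R 4.3.3) with TMM normalization, filterByExpr (minimum count 10, minimum total 15) and the robust quasi-likelihood test, with group as the only term, and p-values were adjusted over 15267 genes by Benjamini-Hochberg. Log2 CPM used a prior count of 2. Levels per kilobase use the union of exons of the GRCm38 annotation, which held 97.5% of the names. The steps were tested on simulated data.

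The 3 groups were taken from the labels and compared in pairs. The members and lists were chosen with earlier results of these data known, and members selected by their insulin response were given no p in that comparison, nor Itgam in any. Named were the members, Itgb2, C1qc, Lyz1, Insr and 3 B cell genes, of each list up to 4 called genes by size of change or else the 2 of highest mean CPM, and the 5 genes most like Itgam or the other members. As alternatives, upper-quartile normalization, DESeq2 1.42.0, no filter or at least 10 counts in every library, a fit of only the 2 groups compared, the replicate number as a block, leaving out each library, leaving out both libraries with the most B cell RNA, summed Lyz1 and Lyz2, and, added after seeing the data, summed Itgam and Gm49368 were run. Each library was 1 mouse.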

Additional observations from a re-analysis of the deposited data

Results flagged for a closer look

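Control-STAM-nonINS replicate 4 lay far above the other 3 untreated libraries for 3 genes: the gap to the nearest library, as a share of the range of the group, was 0.945 for Csf1r, 0.834 for C1qb and 0.941 for Itgb2, all above Dixon's 95% critical value for 4 samples. These were 3 of 42 tests of a gene in a group, of which chance flags about 1 in 20, or 2.1. The same library had 15.7 CPM of Itgam, close to the other untreated libraries, and its position in the other members is given with each of them. Its cause was not tested.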

How the results depend on the processing

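The log2 fold change of Itgam with insulin stayed positive in every alternative run, from 1.17 to 1.42 when 1 library was left out. The median of the other 9 members (0.064) ranged from -0.032 to 0.394, the highest without untreated replicate 4. Of 1880 values under the alternatives of the other 9 members and of list genes called with all libraries, 1605 kept direction and side of the threshold, 252 lost and 5 gained a call, and 18 reversed. Calls gained by list genes that were not called with all libraries are not in this tally. Between the ieIRKO mice and the treated controls, leaving out ieIRKO replicates 2 and 3 together turned C1qa (-0.049), C1qb (-0.066), Cd68 (-0.007), Itgax (-0.003) and Mrc1 (0.001), and leaving out 1 library moved Adgre1 from -0.106 to 0.053, C1qa from -0.034 to 0.131, Mrc1 from -0.048 to 0.042 and Insr from -0.00256 (without ieIRKO replicate 4) to 0.163. Against the untreated controls, Csf1r was -0.102 without both libraries and -0.082 to 0.427 without 1. The cause was not tested.

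Of all genes, 1602 were called with insulin (824 to 1877 without 1 library, the lowest without untreated replicate 1), 34 between the ieIRKO mice and the treated controls (29 to 50, and 127 by DESeq2) and 2036 between the ieIRKO mice and the untreated controls (1093 to 2274, again lowest without untreated replicate 1, 1270 without ieIRKO replicates 2 and 3, and 1038 in a fit of only these groups). Of the list genes, the calls were 15 (9 to 18), 5 (4 to 6, 11 by DESeq2, 3 without both libraries) and 35 (18 to 40, 20 without both libraries, 17 in the fit of only these groups). Of the 9 members, 0 were called between the ieIRKO mice and the treated controls without any 1 library, and against the untreated controls the call of 1 became 2 by DESeq2, 0 without both libraries, 0 in the fit of only these groups and 0 to 5 without 1 library. Same-numbered libraries correlated by -0.0943 to 0.179 in their deviations, and not every pair was over 0.1, so the replicate numbers were not taken as a pairing. With the replicate number as a block, 3 and 23 list genes were called in the last 2 comparisons. Of libraries with a partner, their own number correlated best in 1 of 4, 0 of 4 and 3 of 6. The number of mice per group limits what could be detected.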
